A study of Mus musculus with 2 samples.

Results

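The LINE-2-derived family described here consists of the 5p and 3p arms of the hairpins miR-28a, miR-151 and miR-708. These 6 names were taken by name from a table of 1915 mature mouse miRNAs, whatever their counts. Small RNAs were sequenced from unstimulated bone marrow-derived macrophages (BMDMs), which are macrophages grown in culture from bone marrow progenitors. The cells were WT, of the C57/BL6 strain, from mice 8 weeks of age, and received no treatment. There was 1 condition with 2 libraries, replicates 1 and 2, which held 7322969 and 8094314 miRNA counts. The labels call the libraries biological replicates but do not say that they came from separate mice, so the spread between them may be technical.

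LINE-2 elements are ancient retrotransposons that no longer move in mammalian genomes, and inverted copies of such an element, once transcribed, can fold into a miRNA hairpin. Each hairpin is cut into a duplex of a 5p and a 3p arm, of which usually 1 is kept by Argonaute, and the kept arm finds its targets mainly through the seed, bases 2 to 8. The hairpin of miR-28a lies within Lpp, a gene for a focal adhesion protein with LIM domains, that of miR-151 within Ptk2, which encodes focal adhesion kinase, and that of miR-708 within Tenm4, which encodes a teneurin. miR-708 is known as a miRNA induced with its host gene by the transcription factor CHOP during endoplasmic reticulum stress.

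Mature sequences in RefSeq (build GRCm38.p6) were matched by name for 4 of the 6 members. They are shown because the 5p arms of miR-28a and miR-708 carry the same seed while their counts lie far apart. The related miR-28b is added because it resembles miR-28a-5p but starts 1 base further along. The miR-151 arms and the related miR-28c had no matched sequence, so their seeds were not compared. Sequences run 5′ to 3′, and capitals mark the seed.
mmu-miR-28a-5p: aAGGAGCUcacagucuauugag
mmu-miR-708-5p: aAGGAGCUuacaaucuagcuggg
mmu-miR-28b: aGGAGCUCacaaucuauuuag
mmu-miR-28a-3p: cACUAGAUugugagcugcugga
mmu-miR-708-3p: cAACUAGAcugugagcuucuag

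The seed AGGAGCU was shared by mmu-miR-28a-5p and mmu-miR-708-5p and by no other of the 1679 mature miRNAs of the reference, in which 1623 of the 1915 names of the table were matched. These 5p arms were identical at 16 of the 22 positions compared from the 5′ end, and the first 8 bases were the same. Counted from 1 at the 5′ end, with the base of miR-28a-5p first, they differed by C9U, G13A, U18G, U19C, G20U and A21G, all outside the seed. The 3p arms had different seeds, but shifted by 1 base they matched at 17 of 21 positions. miR-28b matched miR-28a-5p at 19 of 21 positions when shifted by 1 base, so its bases 2 to 8 read GGAGCUC and its seed is not that of miR-28a-5p. A run of 13 bases of miR-28a-5p, AGCUCACAGUCUA, had its exact Watson-Crick complement in miR-708-3p. Within the miR-28a hairpin, the longest such run between the arms was 8 bases.

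All 3 hairpins lay in introns of protein-coding genes on the same strand in the GENCODE annotation of GRCm38. Mir28a (ENSMUSG00000065494.1) was annotated at chr16:24827855-24827940 on the plus strand, in intron 8 of the transcript Lpp-201, and mmu-miR-28a-5p at chr16:24827868-24827889. Mir151 (ENSMUSG00000065612.1) was annotated at chr15:73254815-73254882 on the minus strand, in intron 23 of Ptk2-208. Mir708 (ENSMUSG00000076143.1) was annotated at chr7:96249424-96249532 on the plus strand, in intron 1 of Tenm4-203, with mmu-miR-708-5p at chr7:96249450-96249472. None of the transcripts that spanned a hairpin had an exon over it, in 3 transcripts of Lpp, 5 of Ptk2 and 7 of Tenm4. The introns were long, 82814 bases in Lpp, 14556 in Ptk2 and 144585 in Tenm4. Counts of the host transcripts were not analysed here.

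Resting macrophages carried miR-28a and miR-151 at moderate levels and hardly any miR-708. Levels are given as RpM, the reads of a miRNA per 1000000 miRNA reads of its library. The 6 members together held 21323 counts in replicate 1, or 0.291% of all miRNA counts (95% Wilson interval 0.287 to 0.295). In replicate 2 they held 23799 counts, or 0.294% (0.290 to 0.298). The mean was 0.293% ± 0.00201 (SD, n = 2), and with library totals the intervals of the libraries overlapped. This closeness is limited to library totals, as TMM or DESeq2 scaling adds 0.13 or 0.14 to the log2 ratio of replicate 2 to replicate 1. Most of it was miR-151, whose arms made up 78.1% and 79.1% of the family's counts, against 21.9% and 20.9% for miR-28a. Intervals and limits given here cover counting error only, as the reads are PCR copies with no molecular identifiers and so do not count independent molecules. In bulk samples of this kind, fewer cells that carry a miRNA and less of it per cell cannot be told apart.

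mmu-miR-151-3p was the most abundant member, with 11339 counts in replicate 1 (1548 RpM) and 12187 in replicate 2 (1506 RpM). It ranked 54 and 57 among all names, with a mean of 1527 RpM ± 30.3 (SD, n = 2). Its partner mmu-miR-151-5p had 5311 counts (725.3 RpM) and 6642 counts (820.6 RpM), with a mean of 772.9 RpM ± 67.4 (SD, n = 2) and ranks 71 and 73. In both libraries the 3p arm of miR-151 stood above every other member. miR-21a-5p, the miRNA with the highest count, exceeded it 180.7-fold in replicate 1 and 170.8-fold in replicate 2.

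mmu-miR-28a-5p had 3470 counts in replicate 1 and 3828 in replicate 2. On the RpM scale these were 473.9 (95% Wilson interval 458.3 to 489.9) and 472.9 (458.2 to 488.1), a mean of 473.4 RpM ± 0.655 (SD, n = 2). With library totals the intervals of the libraries overlapped, while with TMM or DESeq2 scaling this member was called higher in replicate 2, and it ranked 88 and 85. mmu-miR-28a-3p had 1203 counts (164.3 RpM, interval 155.3 to 173.8) and 1138 counts (140.6 RpM, interval 132.7 to 149.0). Its mean was 152.4 RpM ± 16.7 (SD, n = 2) at ranks 132 and 133, and here the intervals did not overlap with library totals, a difference not called with TMM or DESeq2 scaling.

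The miR-708 arms were at the limit of detection. mmu-miR-708-5p had 0 counts in both libraries, a result still possible for a true level of up to 0.410 RpM (replicate 1) or 0.371 RpM (replicate 2), which is 3 counts per library. mmu-miR-708-3p had 0 counts in replicate 1 and 4 in replicate 2, or 0.494 RpM with an exact Poisson interval of 0.135 to 1.27. So the only miR-708 reads came from 1 library and from the 3p arm. The exact Poisson upper limit for a count of 0 was higher than this 3-count limit, at 0.504 RpM in replicate 1 and 0.456 RpM in replicate 2. The counts of miR-28a-5p were 1157-fold the 3-count limit of miR-708-5p, which has the same seed, in replicate 1 and 1276-fold in replicate 2. The count of miR-28a-3p was 401-fold the 3-count limit of miR-708-3p in replicate 1. In replicate 2 the ratio of these 3p arms was 284.5 with a counting interval of 110.8 to 1046.

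**Figure D1:**
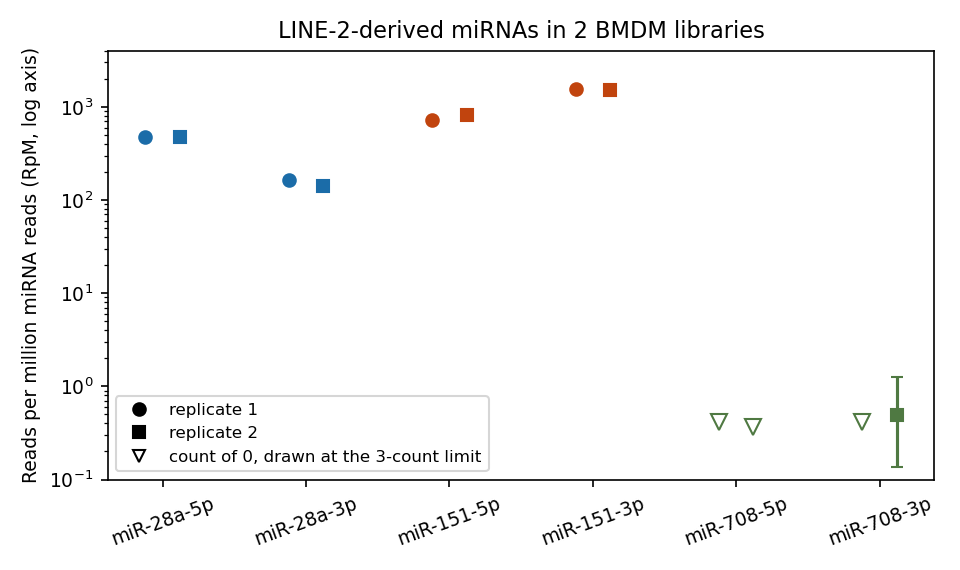
RpM of each member on a log axis, with circles for replicate 1, squares for replicate 2 and open triangles for a count of 0 drawn at the 3-count limit. Bars are 95% Poisson intervals, smaller than the symbols for the miR-28a and miR-151 arms, which lie between 140.6 and 1548 RpM, while miR-708-3p is seen in replicate 2 alone at 0.494 RpM.

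The order of the abundant members was the same in both libraries: miR-151-3p, miR-151-5p, miR-28a-5p, miR-28a-3p. miR-151-5p exceeded miR-28a-5p 1.53-fold and 1.74-fold, and each step in this order was larger than the SDs of the members on either side. Summed over both arms, the miR-151 hairpin exceeded the miR-28a hairpin 3.56-fold in replicate 1 and 3.79-fold in replicate 2, a mean of 3.68-fold ± 0.162 (SD, n = 2). With library totals the hairpin sums were 2299.9 RpM ± 37.1 for miR-151 and 625.8 RpM ± 17.4 for miR-28a (SD, n = 2). This placed them 33 and 55 among the 305 hairpins with both arms listed and at least 10 counts. The members were not separated from most of their neighbours among all miRNAs. Of the miRNAs next above and below each abundant member in mean level, only miR-181b-5p (1585 RpM ± 17.3), above miR-151-3p, differed by more than the larger SD and kept its place in both libraries. The other neighbours were miR-378c below miR-151-3p, miR-221-5p and miR-652-3p around miR-151-5p, miR-486b-5p and miR-223-5p around miR-28a-5p, and miR-450a-5p and miR-143-3p around miR-28a-3p. Each of these differed from its member by less than the larger SD and changed sides between the libraries.

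**Figure D2:**
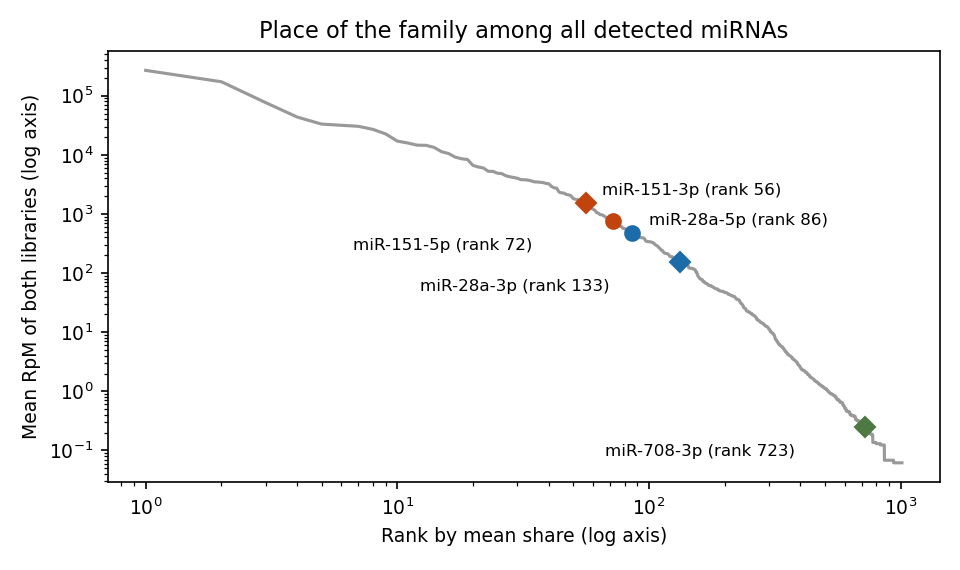
Mean RpM of both libraries against rank for every detected miRNA, both on log axes, with the members marked. The arms of miR-151 rank 56 (3p) and 72 (5p), those of miR-28a rank 86 (5p) and 133 (3p), miR-708-3p ranks 723, and miR-708-5p, at 0 in both libraries, is not drawn.

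By read counts, the miR-28a and miR-151 hairpins had opposite major arms. In miR-28a the 5p arm, whose seed is also that of miR-708-5p, was the major arm, with 74.3% of the hairpin's counts in replicate 1 (95% Wilson interval 73.0 to 75.5) and 77.1% in replicate 2 (75.9 to 78.2). In miR-151 the 5p arm was the minor arm, with 31.9% (31.2 to 32.6) and 35.3% (34.6 to 36.0). The means were 75.7% ± 2.00 for miR-28a and 33.6% ± 2.39 for miR-151 (SD, n = 2). The gap was 42.4 percentage points in replicate 1 and 41.8 in replicate 2, far above the spread between the libraries. Put as folds, miR-28a-5p exceeded miR-28a-3p 2.88-fold and 3.36-fold, and miR-151-3p exceeded miR-151-5p 2.14-fold and 1.83-fold. For miR-708 the 5p arm held 0 of 4 counts in replicate 2, for which the exact upper limit is 60.2%, and no arm could be called the major one.

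Within a library, 5p and 3p counts were compared by an exact binomial test, two-sided, adjusted by the Benjamini-Hochberg method over 305 hairpins. For miR-28a in replicate 1 this exact test gave an adjusted p of 9.47e-251, and for miR-28a in replicate 2 and miR-151 in both libraries p was below the smallest number the computation can hold. By this test, the 5p arm was above the 3p arm with an adjusted p under 0.05 in both libraries in 38.7% of the hairpins tested. miR-28a was the 1 hairpin of the family among them. The 3p arm was above in the same sense in 34.1%, and miR-151 was the 1 hairpin of the family among these. Either direction was therefore common among hairpins. These p-values, like the intervals, cover counting error only and take each read as independent.

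Neither hairpin was strongly one-sided. Of 176 hairpins with at least 100 counts over both libraries, 34 (19.3%) had a mean 5p percent between 20 and 80, limits chosen after the values were seen, and miR-28a and miR-151 were both among them. The median 5p percent of the 176 was 66.6, and 93 of them had a lower 5p percent than miR-28a and 68 a lower one than miR-151. The hairpins nearest to miR-28a were let-7d (77.2% and 73.7% in replicates 1 and 2) and miR-34b (72.5% and 76.8%). Those nearest to miR-151 were miR-574 (36.8% and 29.1%) and miR-467d (29.9% and 40.0%). The 3p counts of miR-467d, 350 and 198, equal those of miR-467a-3p, so its arm split is uncertain. In mean 5p percent, each of the 4 differed from its family member by less than the spread between the libraries.

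**Figure D3:**
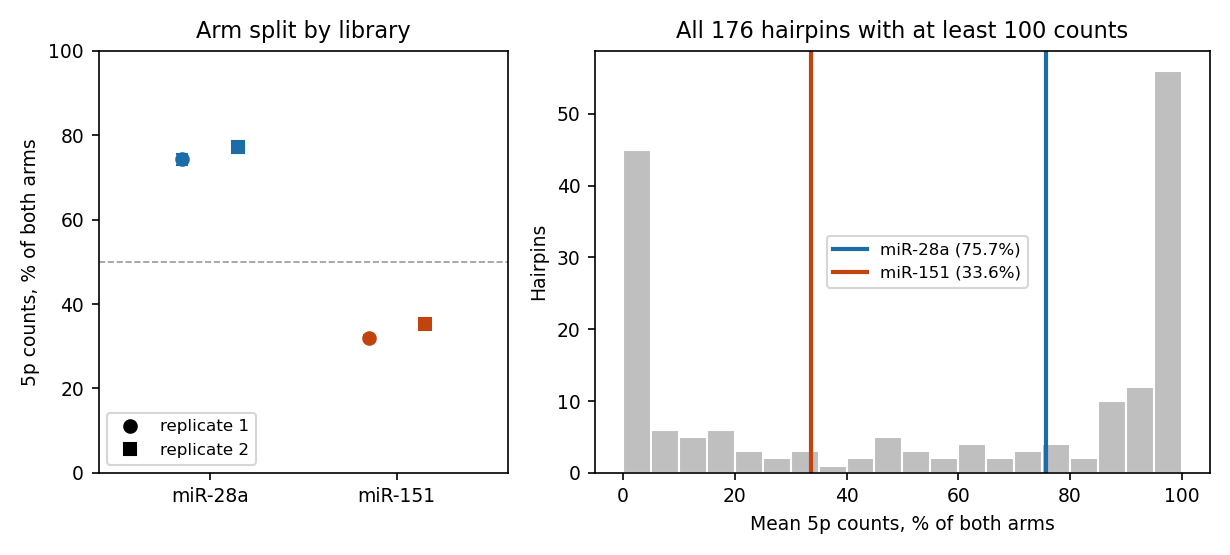
Left, the 5p arm as a percent of both arms' counts for miR-28a and miR-151 in each library, with 95% Wilson intervals and a dashed line at 50%. Right, the number of hairpins by mean 5p percent in bins of equal width, for 176 hairpins, where miR-28a (75.7%) and miR-151 (33.6%) fall in the thinly filled middle between the peaks at either end.

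For comparison, 20 other single-copy hairpins were listed that lie in protein-coding genes on the same strand, of which 18 were intronic in every transcript that spans them. With at least 100 counts there were 19, all but miR-335, which had 2 and 4 counts. Their 5p percent ran from 0.115 (miR-326, in Arrb1) through a median of 67.0 (miR-33, in Srebf2) to 100 (miR-149, in Gpc1). miR-28a lay in the middle of this list, with 10 of the 19 lower, and miR-151 had 7 of 19 lower. Only 4 of the 19 fell between 20 and 80%. In level, 6 of the 19 exceeded the miR-151 hairpin and 8 exceeded the miR-28a hairpin, and the list's median was 509.7 RpM.

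**Figure D4:**
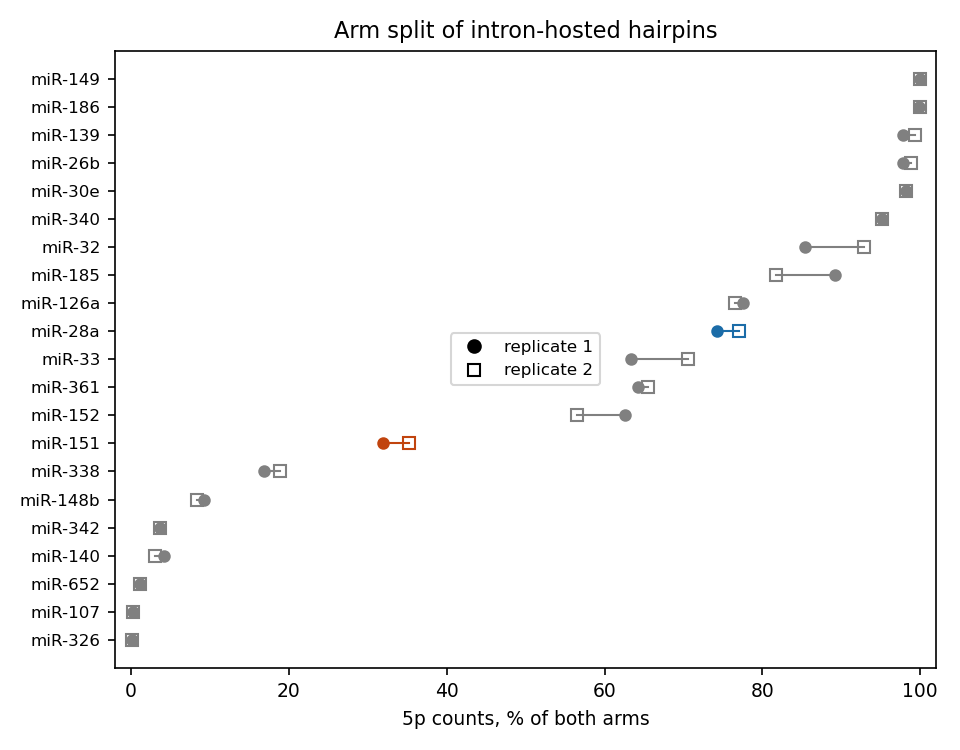
The 5p arm as a percent of both arms' counts for 19 intron-hosted or gene-hosted hairpins and for miR-28a (blue) and miR-151 (orange), with filled circles for replicate 1 and open squares for replicate 2. miR-28a lies at 74.3% and 77.1% and miR-151 at 31.9% and 35.3%, between a group near 100% and a group near 0%.

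The arm split moved toward 5p in replicate 2 in both hairpins, by 2.83 percentage points in miR-28a and 3.38 in miR-151. Fisher's exact test of arm by library, two-sided, adjusted by the Benjamini-Hochberg method over 305 hairpins, gave an adjusted p of 0.00853 for miR-28a and 3.48e-10 for miR-151. Such differences were called in 17.0% of the hairpins tested, and in 10.2% with the 5p percent higher in replicate 2, and both family hairpins with enough counts were of that kind. As a log2 ratio of 5p to 3p, replicate 2 exceeded replicate 1 by 0.22 (counting SE 0.07) in miR-28a and by 0.22 (counting SE 0.03) in miR-151. Shifts of this size were ordinary: of 89 hairpins with at least 100 counts in each arm, 37 moved less than miR-28a and 36 less than miR-151, and the median absolute shift was 0.29. There was no common direction, with 45 of the 89 moving toward 5p. Among the 20 hairpins between 20 and 80% with at least 1000 counts, 13 (65.0%) were called.

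The level of each member was also compared between the libraries, by Fisher's exact test of its count against the rest of the library, two-sided, adjusted by the Benjamini-Hochberg method over the 588 names with at least 10 counts. This test compares 2 libraries of the same condition, and its p-values, like those of the arm split by library, cover counting error only. Of the 4 members with enough counts, 2 were called with library totals and 3 with TMM or DESeq2 scaling, where 44.2% of all names tested were called with library totals. Calls depend on depth, and among the 170 names with at least 1000 counts, as all 4 of these members had, 140 (82.4%) were called. miR-151-5p was called higher in replicate 2, with a log2 ratio of 0.18 (counting SE 0.03, Fisher's exact test, adjusted p = 8.76e-11), in a direction called for 13.8% of names. miR-28a-3p was called lower, with a log2 ratio of -0.22 (counting SE 0.06, Fisher's exact test, adjusted p = 0.000555), in a direction called for 30.4% of names, and this call was lost with TMM or DESeq2 scaling. Neither miR-28a-5p, at a ratio of 0.998 (Fisher's exact test, adjusted p = 1), nor miR-151-3p, at a ratio of 0.972 (Fisher's exact test, adjusted p = 0.0691), passed with library totals. The call of miR-151-3p went both ways: it was called lower in replicate 2 with names under 100 counts left out (Fisher's exact test, adjusted p = 0.0460) or with totals without miR-21a-5p, and higher with TMM or DESeq2 scaling. The miR-708 arms, with under 10 counts, were not tested.

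These ratios depend on the scaling. The median log2 ratio of the 588 names was -0.16 with library totals and -0.03 with TMM scaling, which adds 0.13 to every ratio. DESeq2 size factors add 0.14, but both were 1, because the median ratio of raw counts over the 776 names found in both libraries was 1, so this setting compares unscaled counts. Relative to the median of the names tested, the log2 ratio was 0.34 for miR-151-5p, 0.16 for miR-28a-5p, 0.12 for miR-151-3p and -0.06 for miR-28a-3p. With library totals, the 170 names with at least 1000 counts, as these members had, had a median log2 ratio of -0.04. Relative to that median, miR-151-5p, miR-28a-5p and miR-151-3p would differ less and miR-28a-3p more. With TMM and with DESeq2 scaling miR-28a-5p and miR-151-3p were called higher in replicate 2 and miR-28a-3p was not called, while miR-151-5p was called higher under each scaling run. Library totals gave 81 names higher and 179 lower in replicate 2, TMM 122 and 137, and DESeq2 124 and 127. With library totals, no abundant member stood out for a large difference. Of 170 names with at least 1000 counts, whose median absolute log2 ratio was 0.24, 1 had a smaller absolute ratio than miR-28a-5p, 13 than miR-151-3p, 68 than miR-151-5p and 79 than miR-28a-3p.

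**Figure D5:**
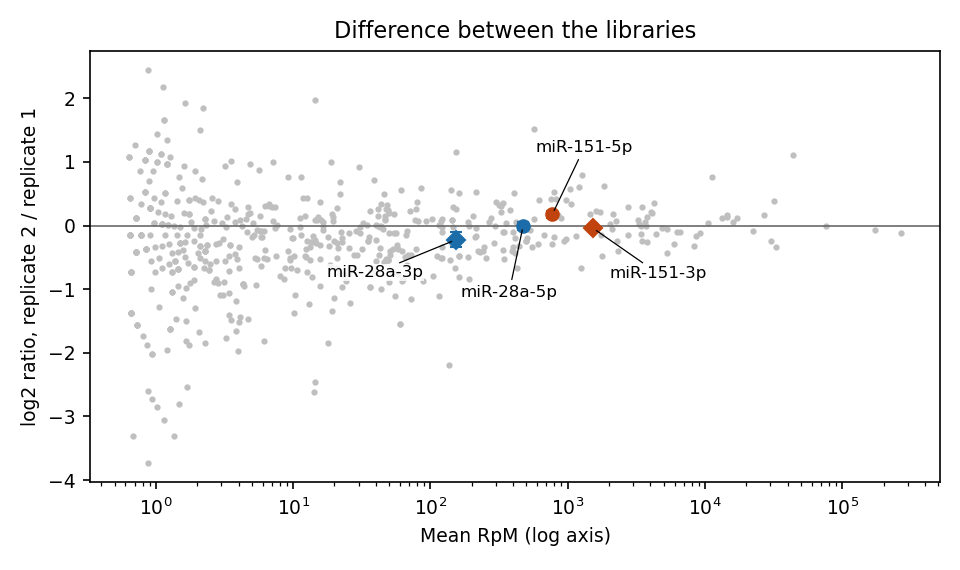
Log2 ratio of replicate 2 to replicate 1, with library totals as the scaling, against mean RpM on a log axis, for tested names with counts in both libraries (grey), with members in colour and bars of 95% counting error. miR-151-5p (0.18) lies above and miR-28a-3p (-0.22) below the line at 0, while miR-28a-5p (-0.00) and miR-151-3p (-0.04) lie on or just below it and move above it with TMM or DESeq2 scaling.

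Other names of the lineage were rare. miR-28c had 19 counts in replicate 1 and 17 in replicate 2, and miR-28b had 4 and 8. miR-325-5p and miR-325-3p had 0 counts in both libraries. Next to the 3470 and 3828 counts of miR-28a-5p these are small, and adding the counts of miR-28b and miR-28c to its arm moved the mean 5p percent of miR-28a from 75.7 to 75.8. No other name in the table had the same pair of counts as any of the 4 abundant members.

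The macrophage label was checked against miRNAs that mark cell types. All 5 myeloid and hematopoietic markers were present, at a summed 49602 RpM in replicate 1 and 37791 RpM in replicate 2, led by miR-142a-5p (37030 and 29252 RpM) and with miR-223-3p at 6053 and 4485 RpM. Of 4 fibroblast and smooth muscle markers all were present, at a summed 232.1 and 152.8 RpM, led by miR-143-3p, and of 7 epithelial markers 6 were found in both libraries, at a summed 174.1 and 187.2 RpM, led by miR-200b-3p. These sums lie in the range of the miR-28a arms and far under the myeloid and hematopoietic sum. Of that sum the 5p and 3p arms of miR-142a held 43040 RpM in replicate 1 and 32878 RpM in replicate 2. The lymphoid marker miR-150-5p stood at 27.6 and 10.9 RpM and the endothelial marker miR-126a-3p at 14.1 and 10.9 RpM. The other arm of that hairpin, miR-126a-5p, had 355 and 286 counts, and both arms together stood at 62.5 and 46.2 RpM. The 2 erythroid markers summed to 1.23 and 0.988 RpM, led by miR-451a. The neuronal marker miR-124-3p was at 0 in both libraries and miR-9-5p at 1.64 and 1.36 RpM, the liver marker miR-122-5p was at 0, and of 3 muscle markers only miR-133a-3p was seen, at 0.741 RpM in replicate 2. With library totals, the myeloid and hematopoietic sum and the fibroblast and smooth muscle sum were lower in replicate 2. So were miR-150-5p and miR-126a-3p (103 and 88 counts). Of the 5 myeloid and hematopoietic markers only miR-511-5p was higher (65.4 and 77.1 RpM), and the epithelial sum was also higher in replicate 2. The erythroid sum (9 and 8 counts) and miR-9-5p (12 and 11 counts) differed by too little to give a direction. No test was run on the marker sums. miR-28a-3p was also lower in replicate 2 with library totals, a call lost with TMM or DESeq2 scaling. The markers' part in the differences between the libraries was not tested.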

How the data were processed

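Total RNA of unstimulated BMDMs was depleted of rRNA and made into Illumina small RNA libraries. Reads were trimmed and aligned by the authors with Bowtie 0.12.7 to the mouse stem-loops of miRBase, and the deposited values are raw counts per mature miRNA name, separate for each replicate. The miRBase release and the rule for reads with several matches are not given in the sources used here. That rule can move counts between related names, and adapter ligation and PCR favour some sequences, so RpM is not a share of molecules and levels of different miRNAs compare reads. The submitters' processing notes also name DESeq2, with no role given.

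Counts were divided by library totals (7322969 and 8094314). Shares of a library or a hairpin have 95% Wilson intervals, counts under 10 exact ones, and a count of 0 a limit of 3 counts. At this depth counting error is small for members with over 1000 counts, and the number of libraries, 2, limits precision. Names and hairpins were tested if their counts in both libraries came to at least 10, with Fisher's exact test between libraries and an exact binomial test between arms, each two-sided, adjusted by the Benjamini-Hochberg method over all names or hairpins tested and called at 0.05. With 1 condition no groups could be compared. A chi-square test over all tested names gave 291.7 per degree of freedom, so the libraries are not one deposited under both labels.

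Named besides the members were their nearest miRNAs in level, the nearest hairpins in arm split, names with the same seed or lineage, a list of 20 gene-hosted hairpins (by its lowest, median and highest 5p percent) and cell type markers. miR-21a-5p, miR-335, miR-467a-3p and miR-126a-5p were named after their values were seen. The members and lists were chosen with earlier results of these data known. Sequences came from RefSeq (GRCm38.p6), in which 1623 of the 1915 names were matched, and hairpin positions from GENCODE release M21.

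Alternatives were TMM (edgeR 4.0.16) and DESeq2 1.42.0 scaling in R 4.3.3, with exact binomial tests for the calls (the DESeq2 size factors were both 1, which leaves counts unscaled), totals without miR-21a-5p, other count minimums, pooled reads, and each library alone. Other steps used Python 3.11.15, SciPy 1.17.1, pandas 2.3.3 and matplotlib 3.10.9. The procedures were tested on simulated data.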

Additional observations from a re-analysis of the deposited data

How the results depend on the processing

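With the total taken without miR-21a-5p, the share of the 6 members rose from 0.293% to 0.400%, since the total is smaller by construction. The sign of 2 log2 ratios between the libraries turned with scaling. That of miR-28a-5p became 0.13 with TMM and 0.14 with DESeq2, and that of miR-151-3p became 0.089 with TMM and 0.10 with DESeq2, because these scalings add 0.13 and 0.14 to every log2 ratio. The ratio of miR-28a-3p kept its sign but was no longer called with TMM (-0.095, exact binomial test, adjusted p = 0.211) or DESeq2 (-0.080, exact binomial test, adjusted p = 0.327). miR-151-3p was called lower without miR-21a-5p (-0.085) and, with names under 100 counts left out, at its ratio of -0.04 (Fisher's exact test, adjusted p = 0.0460). Members called numbered 2 or 3 under each alternative run, while the share of all names called ran from 24.4% (2 members, every name with at least 1 count) to 68.7% (3 members, at least 100 counts). The 5p percent of each library alone ran from 74.3 to 77.1 for miR-28a and from 31.9 to 35.3 for miR-151, and pooled reads gave 75.7 and 33.7. Both arm-split calls were kept with a minimum of 100 counts per hairpin or of 10 per arm, where 55 of 176 (31.25%) and 55 of 160 (34.4%) hairpins were called in place of 52 of 305 (17.0%). A factor per library cancels in an arm split, so scaling was not applied to it. Without replicate 2 no reads of miR-708 remained and its arm split had no value. At 0 to 4 counts, depth limits any statement on miR-708. No paired analysis was possible because there is 1 condition only.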
